A study of Strongylocentrotus purpuratus with 4 samples.

Results

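A module of 100 genes was read in single cells of the purple sea urchin, Strongylocentrotus purpuratus. Its members were the genes whose transcripts were most enriched, in the uninjected library of 48 hours post-fertilization (hpf), in cells that carried many transcripts of 8 seed genes known from cell division. Cells with 400 to 2500 detected genes and at least 1500 unique molecular identifiers (UMIs, counted transcript molecules) were kept. UMIs were summed over the cells with 4 or more seed UMIs, here called high cells, and over the cells with 0 seed UMIs, here called zero cells. Each gene's UMIs were scaled by the total of the sum it came from (CPM), and the ratio of a gene is its CPM plus 1 in the high cells over its CPM plus 1 in the zero cells. Of 32262 genes in the files, 6589 reached 100 UMIs in these cells, and the 100 of them with the highest ratios form the module, the seeds left out. The members were thus chosen by the 48 hpf uninjected values, which are given as a description. The 3 other libraries and the cell groups within them did not choose them.

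In a dividing cell the DNA is copied in S phase, and in mitosis the copied chromosomes are condensed, attached to the spindle at their kinetochores and pulled apart before the cell is cut in 2 at cytokinesis. Many transcripts for these steps accumulate just before the step they serve and are scarce in cells that have left the cycle, so that they are often read as a sign of cycling cells in single-cell data. Sea urchin embryos divide fast during cleavage and more slowly from gastrulation on, while skeletogenic mesoderm and other lineages stop dividing as they differentiate.

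The 4 libraries were made with the 10x Genomics 3′ chemistry, 1 for each group. The uninjected embryos were sampled at 48 hpf, as gastrulae, and at 72 hpf, as larvae, and their cells were enriched for ectoderm, each library in its own sequencing lane. The other 2 groups were injected as zygotes with a morpholino antisense oligonucleotide (MO) at 0.5 mM and dissociated as whole gastrulae at 48 hpf, both in 1 lane. The study's methods give the control MO a sequence without a target in this species, while its reagent list prints 1 sequence for both MOs, so the control is taken here as labelled. The gcm MO blocks translation of Gcm, a transcription factor that pigment cells need. A block of translation leaves the transcript in place, so the level of gcm transcripts does not check the knockdown. Injected embryos were picked for their phenotype before dissociation, so each library pools many embryos. With 1 library in a group no test was possible. Ranges in brackets are exact 95% intervals, which cover counting error only. Those of ratios are for the plain CPM ratio without added CPM, also where the value beside them has 1 CPM added. A gene is called where its ratio is at least 2 or at most 0.5. The control MO and uninjected 48 hpf libraries differ in injection, tissue preparation and lane, which cannot be told apart, and the same holds for stage and lane between the uninjected libraries.

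The libraries held 5688, 8178, 3402 and 643 deposited cells in the order uninjected 48 hpf, uninjected 72 hpf, control MO and gcm MO, an order used throughout, and 3634, 3310, 3054 and 354 of them were kept. The kept cells had a median of 3750, 3235.5, 2757 and 4915.5 UMIs. Between 1 and 16 cell barcodes were shared by a pair of libraries. A doublet caller marked 0 of 4328 and 0 of 4504 scored cells in the uninjected libraries, where it is taken not to have worked, and 29 of 3199 and 3 of 447 in the injected ones. No cell was removed on that ground.

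Among the seeds were the condensin subunit SMC2 (LOC574836), the cohesin subunit SMC1A (LOC580943), the kinetochore protein centromere protein C (LOC589199) and the spindle protein NUSAP1 (LOC576796). Also among them were the central-spindle protein rac GTPase-activating protein 1 (LOC578080), the DNA polymerase alpha catalytic subunit (LOC584095) and the histone-binding protein N1/N2 (LOC373260). The high cells were 1385 of 3634 at 48 hpf, which is 38.1% [36.5 to 39.7]. They were 908 at 72 hpf, which is 27.4% [25.9 to 29.0], 959 in the control MO library, which is 31.4% [29.8 to 33.1], and 151 in the gcm MO library, which is 42.7% [37.4 to 48.0]. These shares follow depth in part, since high cells had a median of 4349, 4068, 3282 and 5227 UMIs against 3335, 2965, 2500 and 4527 in zero cells. With every cell thinned to 1500 UMIs, the shares were 16.02%, 10.2%, 12.5% and 14.1%, so the 48 hpf library was above the 72 hpf library either way and the gcm MO library no longer stood first.

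The members took a median of 1.57%, 1.65%, 1.54% and 1.42% of a high cell's UMIs and 0.0646%, 0.0855%, 0.0429% and 0.0214% of a zero cell's. The histograms of this share were nearly separate. Of the zero cells, 1.84%, 2.43%, 1.64% and 1.28% gave members 0.5% or more of their UMIs. Of the high cells, 10.8%, 9.47%, 7.72% and 19.9% gave them less than that.

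**Figure D1:**
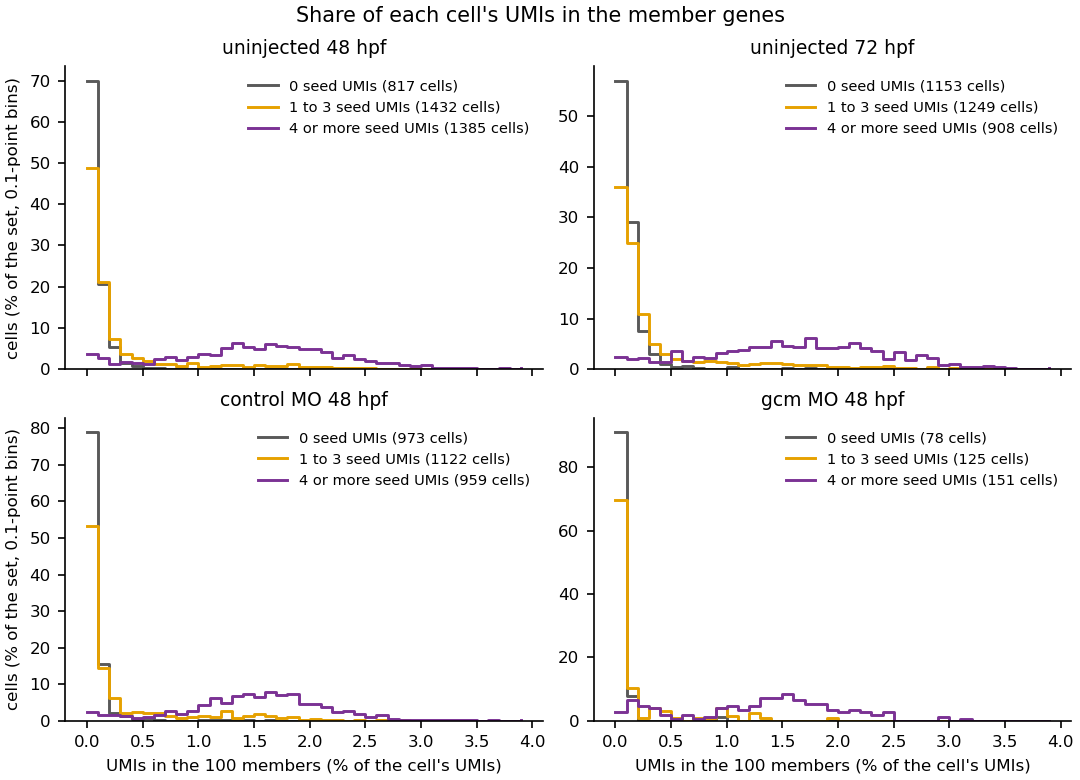
Share of each cell's UMIs in the 100 members (percent, horizontal axis) against the percent of cells (vertical axis), 1 panel per library, with cells of 0, 1 to 3 and 4 or more seed UMIs drawn apart. Zero cells sit near 0 with medians from 0.0214% to 0.0855%, high cells around 1.42% to 1.65%, with a small group of high cells at the low end.

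The high cells with few member transcripts differed from the others in which seed they carried. In the 149, 86, 74 and 30 high cells with under 0.5% of UMIs in members, LOC580943 (SMC1A, part of the ring that holds sister chromatids together and that also shapes interphase chromatin) gave 54.0%, 53.3%, 57.5% and 51.4% of the seed UMIs. In the other high cells it gave 26.9%, 25.6%, 26.0% and 31.4%. The spindle seed LOC576796 (NUSAP1) went the other way, with 2.08%, 3.76%, 2.60% and 3.47% of seed UMIs in the low cells against 13.8%, 10.4%, 20.5% and 14.5%. The low cells also had fewer seed UMIs, with a median of 4, 4, 4 and 5 against 9, 7, 7 and 10.

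The members were higher at each step of the seed count. At 1500 UMIs a cell, the summed level of the module at 72 hpf was 1842 CPM in cells with 0 seed UMIs, 5282 CPM with 1, 10305 CPM with 2, 15301 CPM with 3, 18830 CPM with 4 to 5 and 23639 CPM with 6 or more. The control MO library ran from 1427 CPM at 0 to 18237 CPM at 6 or more, and the gcm MO library from 865 to 18100 CPM. Each of the 6 classes was above the one before it in all 4 libraries, and cells with a single seed UMI were at 4770, 5282, 4861 and 4776 CPM against 1805, 1842, 1427 and 865 CPM in cells with 0.

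Within the 48 hpf library the ratios of the members ran from 11.1 to 31.3. The 2 members at the end of the list, LOC579556 and LOC583874, had ratios of 11.15 and 11.12, and the first 2 genes outside it, LOC594069 and LOC588585, had 11.05 and 10.98, so the end of the list falls in a smooth run of values. The first 10 were LOC588209 (31.3), LOC586702 (28.5), the repressor E2F8 (26.2), LOC105436615 (24.3), condensin-2 complex subunit H2 (23.2), chromatin assembly factor 1 subunit A (22.3), LOC575648 (22.2), LOC100888793 (21.1), LOC577640 (21.0) and LOC105437539 (20.8). All 100 members passed 2-fold here by construction, as did 24.8% of the 6589 genes.

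The split by seeds picked out most of the same genes in the libraries that did not choose them. At 72 hpf 100 of 100 members were at least 2-fold higher in high cells, against 24% of all genes. The count was 100 of 100 against 22.6% in the control MO library and 99 of 100 against 35.4% in the gcm MO library. The median ratio of the members was 10.9, 15.8 and 29.6 in those libraries, and the median over all genes 1.28, 1.18 and 1.34. These medians depend on the CPM added to each level, and with 10 CPM added in place of 1 they were 4.73, 5.90 and 5.87, with the gcm MO library no longer above the control MO library. At least 5-fold was reached by 96, 96 and 95 members, against 5.19%, 4.72% and 14.3% of all genes.

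The gcm MO value rests on thin counts. Its 78 zero cells held no UMI of 49 members, so the ratios of these depend on the added CPM. With such members set to the floor of 3 counts in zero cells, and plain CPM ratios for the others, 90 members were at least 2-fold higher there and the median was 9.20, while the same treatment gave 99 members and 14.2 at 72 hpf and 100 members and 20.4 in the control MO library. Of all genes, 33.8%, 25.7% and 24.0% reached 2-fold under that treatment in the same order. Summed over the members, the level in high cells was 13.5-fold [13.1 to 13.9] that in zero cells at 72 hpf, 21.8-fold [20.7 to 22.8] in the control MO library and 35.4-fold [29.6 to 42.6] in the gcm MO library. With all cells thinned to 1500 UMIs before the split, these became 11.1-fold, 11.6-fold and 18.1-fold. The higher values of the injected libraries thus hold for the full counts, and at equal depth the 72 hpf and control MO values were close to each other.

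**Figure D2:**
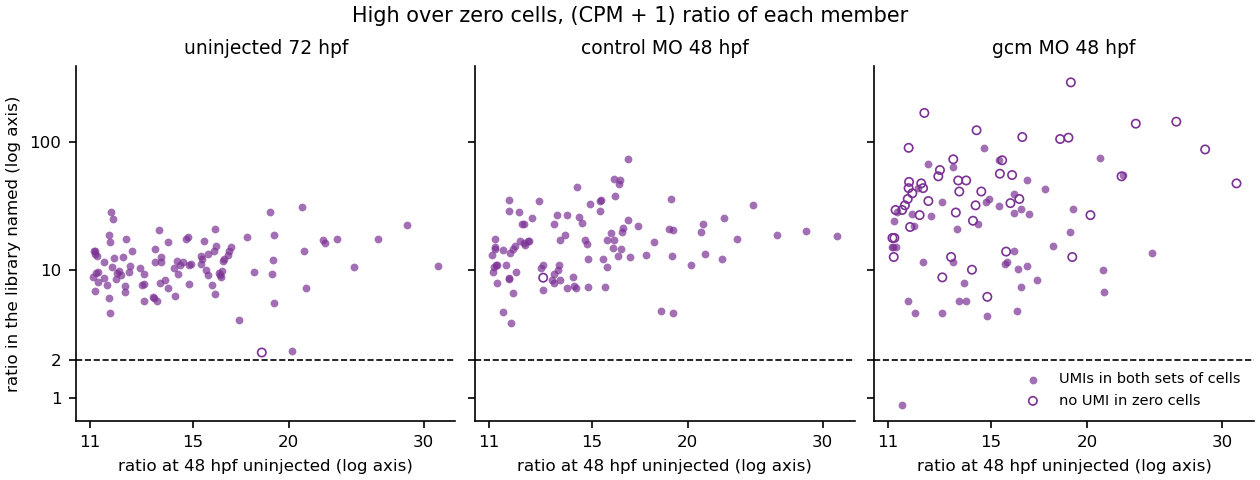
Ratio of each of the 100 members (CPM plus 1 in high cells over CPM plus 1 in zero cells) in the 48 hpf uninjected library (horizontal log axis) against each of the 3 other libraries (vertical log axis, 1 panel each), with open circles for members without a UMI in zero cells and a dashed line at 2. All members but LOC575010 in the gcm MO panel lie above the line, and 49 of the points of that panel are open circles.

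A ranking made afresh in each library by the same rule returned many of the members. At 72 hpf 86 members had the 100 UMIs needed, 57 of these were among the first 100 of 5705 ranked genes and 80 among the first 200, with a median rank of 64. In the control MO library 82 had them, with 63 in the first 100 of 5386 genes and 80 in the first 200, at a median rank of 58.5. In the gcm MO library 29 members had enough UMIs, and 28 were in the first 100 of 1825 genes. The lowest ranks were 337 for LOC576865 at 72 hpf, 261 for LOC100891101 in the control MO library and 127 for LOC580085 in the gcm MO library.

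Counts over single cells gave the same picture at equal depth. After thinning to 1500 UMIs, the median member had a UMI in 7.58%, 8.26%, 9.49% and 8.28% of the high cells and in 0.490%, 0.650%, 0.514% and 0% of the zero cells. In zero cells with high arylsulfatase, aboral ectoderm cells taken here as a measure of the background that free RNA gives, the median was 0.308%, 0.592%, 0.311% and 0%. A high cell showed a median of 16, 16, 16 and 14 different members, a zero cell 1, 1, 1 and 0. No single member gave most of the module: the first 10 by UMIs made up 46.5%, 45.7%, 43.9% and 44.3% of it. LOC577596, for which the tables used here give no name, was the most abundant member in 3 libraries, with 9.93%, 8.64% and 7.80% of module UMIs at 48 hpf, at 72 hpf and in the gcm MO library, and CDK1 in the control MO library, with 10.8%. LOC577596 is named because its values stood out, as it falls outside the naming rule.

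Of the members, 14 could be given a name, 12 from the study's gene table and 2 (CycA and SLBP) from symbols in the files, and 86 could not. These 14 include genes of replication, chromosome structure, the kinetochore, the spindle and cytokinesis. The study picked its listed cell cycle genes on these same libraries, so its 12 names are no independent sign of what the module holds. RefSeq lists 84 of the members, and all 84 were protein-coding, while it lists 88.1% of all tested genes. Of the 24 tested genes with a name, which include some with roles beyond the cell cycle, 14 were members. In the 72 hpf, control MO and gcm MO libraries 20, 21 and 18 of the 24 were at least 2-fold higher in high cells, against the 24%, 22.6% and 35.4% of all genes given above.

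Among replication proteins, DNA ligase 1 (LOC752989), which joins the fragments of the lagging strand, was at 412, 567, 244 and 303 CPM in high cells and at 22.4, 30.2, 17.6 and 5.98 CPM in zero cells. Its ratios were 17.7 at 48 hpf, 18.2 [15.5 to 23.0] at 72 hpf, 13.2 [10.3 to 19.2] in the control MO library and 43.5 [13.9 to 421] in the gcm MO library. PCNA-associated factor (LOC100890576), which binds the sliding clamp at the fork, was at 406, 489, 390 and 361 CPM in high cells, with ratios of 14.7, 17.4, 17.4 and 90.8. High and zero cells were far apart for both in every library, and only the gcm MO values had wide intervals, from 2 and 1 UMIs in zero cells.

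Another pair of members serves newly made DNA. Chromatin assembly factor 1 subunit A (LOC584359) places histones on it and was at 593, 497, 753 and 714 CPM in high cells against 25.6, 29.6, 28.6 and 12.0 CPM in zero cells. Its ratios were 22.3, 16.3 [13.8 to 20.6], 25.5 [20.9 to 33.8] and 55.1 [23.2 to 220]. SLBP, the protein that binds the stem-loop at the end of replication-dependent histone transcripts, was at 101.9, 85.4, 118 and 157 CPM in high cells, with ratios of 16, 21.2, 17.4 and 39.7.

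Chromosome structure was represented by 3 members of 3 named genes tested, and the 3 were at least 2-fold higher in each of the other libraries, where 24%, 22.6% and 35.4% of all genes were. SMC4 (LOC592992), the partner of the seed SMC2 in condensin, had ratios of 16.4, 11.9 [10.0 to 15.1], 19.8 [15.5 to 28.8] and 29.96 [11.2 to 162]. Condensin-2 complex subunit H2 (LOC584403), of the condensin that acts in the nucleus from prophase on, had 23.2, 17.7 and 17.6 in the first 3 libraries. In the gcm MO library it had 107 UMIs in high cells and 0 in zero cells, which is at least 15.5-fold higher. DNA topoisomerase 2-alpha (LOC582001), which untangles sister chromatids, had 14.4, 10.9 [9.16 to 14], 25.9 [18.9 to 46.3] and 23.1 [7.25 to 223].

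The regulators among the 14 named members were CDK1, cyclin A and E2F8. CDK1 (LOC575965), the kinase that drives entry into mitosis, was at 1034, 506, 1598 and 941 CPM in high cells and at 63.5, 76.1, 29.7 and 32.9 CPM in zero cells. Its ratio was 16 at 48 hpf, 6.58 [5.85 to 7.57] at 72 hpf and 52.0 [42.9 to 68.3] in the control MO library. These intervals lie far apart, at the full and unequal depth of the libraries. CycA (cyclin A), which pairs with such kinases in S phase and early mitosis, was steadier, with ratios of 16.7, 14, 24.9 and 51.1 and 245, 213, 218 and 203 CPM in high cells. E2F8 (LOC100891325), a repressor of E2F target genes in mammals, had 26.2, 17.6 [13.9 to 27.3] and 18.9 [13.2 to 39.6], and in the gcm MO library 111 UMIs against 0, at least 16.1-fold higher.

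At the kinetochore, centromere protein F (LOC592172) was at 702, 512, 747 and 729 CPM in high cells against 44.8, 38.9, 20.3 and 8.97 CPM in zero cells, with ratios of 15.4, 12.9 [11.1 to 15.8], 35.1 [27.9 to 49.3] and 73.3 [27.7 to 395]. On the spindle, TPX2 (LOC593807), which activates Aurora A and helps microtubules to form, had 14.9, 11.1 [9.40 to 14.1], 32.9 [25.8 to 48.3] and 36.2. KRP170 (LOC373241), a kinesin-related motor of sea urchin spindles, had 12.0, 9.85 [8 to 13.6], 28.6 [21.0 to 50.2] and 43.9. Anillin (LOC590990), a scaffold of the cleavage furrow, had 11.7, 16.6 [11.8 to 46.8] and 28.8 [18.0 to 173], and in the gcm MO library 69 UMIs against 0, at least 10.0-fold higher. At full depth the ratios of centromere protein F, TPX2 and KRP170 were thus higher in the control MO library than at 72 hpf with intervals apart. Those of anillin and of DNA ligase 1 overlapped. With cells thinned to 1500 UMIs the summed ratios of these libraries were close, 11.1 at 72 hpf and 11.6 in the control MO library. Ratios of single members at equal depth are not given, and the 2 libraries also differ in stage, injection, tissue preparation and lane.

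By the median ratio over the 3 other libraries, the first 10 members were LOC579091, LOC590676, LOC579629, LOC105439929, centromere protein F, LOC583312, TPX2, LOC105437539, LOC578650 and anillin. LOC579091 was at 133, 185, 202 and 124 CPM in high cells, with ratios of 14.4, 9.31 and 45, and at least 13.8-fold higher in the gcm MO library. LOC590676 had 16.3, 8.91 and 51.2, and at least 3.91-fold higher from 27 UMIs. LOC579629 had 11.7, 18.9 and 35.7, and at least 3.91-fold higher. LOC105437539 was the member with the highest ratio at 72 hpf, 31.1 [24.9 to 46.1], and LOC580357 the one in the control MO library, 74.8, the latter named outside the rule.

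The 10 members with the lowest medians over the other libraries were LOC575010, LOC100888349, LOC100891101, LOC583920, LOC576476, LOC592140, LOC100888793, LOC105442406, LOC577033 and LOC587735. LOC575010 had ratios of 11.5, 11.6 and 4.71, and 0.888 [0.125 to 9.61] in the gcm MO library, from 4 UMIs in high and 2 in zero cells, the one member under 2-fold in any library. LOC100888349 had 106 UMIs in high cells and 0 in zero cells at 48 hpf, 5 and 0 at 72 hpf, 164 and 24 in the control MO library and 81 and 0 in the gcm MO library. At 72 hpf these counts say only that it was at least 1.52-fold higher, and in the gcm MO library at least 11.7-fold. LOC100891101 fell to 5.55 and 4.62 at 72 hpf and in the control MO library, from 19.1 at 48 hpf, as its level in zero cells was 20.4 and 5.09 CPM against 1.44 CPM. The other 7 had medians from 6.11 to 8.4, still above the median of all genes.

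The split by seeds also separated cell types. In high cells arylsulfatase (ARS), a marker of aboral ectoderm, was at 0.323, 0.356, 0.267 and 0.231 of its level in zero cells. The skeletogenic list was at 0.0888, 0.0476, 0.152 and 0.761, and the mesoderm collagens at 0.0563, 0.0742, 0.0667 and 0.387. The gut list was 7.22-fold, 0.381-fold, 4.73-fold and 15.1-fold, the pigment list 2.16-fold, 1.01-fold, 0.984-fold and 26.3-fold, and vasa, a germline marker, 4.69-fold, 1.32-fold, 3.05-fold and 20-fold. In the gcm MO library the pigment value rests on 5 UMIs in zero cells [11.1 to 81.5] and that of vasa on 2 [5.38 to 168]. The skeletogenic value there rests on 16 [0.398 to 1.51] and that of the collagens on 9 [0.130 to 1.13], and both of these intervals hold 1. The ectoderm and neural list of 6 genes was 3.51-fold, 2.13-fold, 1.93-fold and 2.32-fold, with 2 of the 6 at 0 in zero cells of the gcm MO library. The other lists held 4 pigment, 5 skeletogenic, 3 gut and 2 collagen genes, all with UMIs in both sets of cells but for gcm, LOC588371 and Alx1, which were at 0 in zero cells of the gcm MO library. Summed levels in high and zero cells ran from 294 to 2036 and from 14.9 to 1101 CPM for the pigment list, from 26.3 to 308 and from 47.8 to 2028 CPM for the skeletogenic list, and from 10.96 to 2624 and from 28.8 to 281 CPM for the gut list. Their part in the members' ratios was not tested, but the members were also read inside groups of cells with like markers.

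Groups were set by shares of UMIs, with thresholds chosen after the data were seen: ARS-high cells had 1% or more of UMIs in ARS, pigment-high and gut-high cells 0.3% or more in their lists, skeletogenic-high cells 1% or more, and ARS-low cells none of these. ARS-high cells were 79.6%, 73.2%, 66.2% and 82.1% of the zero cells, and ARS-low cells 61.7%, 73.9%, 69.9% and 68.2% of the high cells, so within-group ratios are the ones in which this marker moves less.

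Inside ARS-low cells the members kept most of their difference. At 72 hpf 99 of 100 were at least 2-fold higher in high than in zero cells, against 15.1% of all genes, with a median ratio of 7.72 and a summed ratio of 8.72 [8.26 to 9.21]. In the control MO library it was 99 against 11.2%, with a median of 12.4 and a summed ratio of 13.3 [12.4 to 14.4]. Inside ARS-high cells 98 were at least 2-fold higher at 72 hpf against 16.6%, with a median of 9.87 and a summed ratio of 13.9 [13.3 to 14.5], and 98 against 20.8% in the control MO library, with 14.4 and 26.6 [24.8 to 28.6]. With members at 0 set to the floor, the counts were 97, 98, 98 and 96 in the same order, against 16%, 11.8%, 18.4% and 21.9% of all genes treated alike. In the 48 hpf library, which chose the members, the counts were 100 in ARS-low cells against 15.1% of all genes and 100 in ARS-high cells against 20.5%.

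Pigment-high cells were few, and many members had no UMI in their zero cells. At 72 hpf 30 high and 45 zero pigment-high cells gave 87 members at 2-fold or more against 23.6% of all genes, and 56 with members at 0 set to the floor, against 12.6%. In the control MO library 52 and 43 cells gave 90 against 30%, and 55 at the floor, against 12.5%. Summed over the members, which this does not affect, the ratio was 8.99 [7.64 to 10.6] at 72 hpf and 20.4 [15.7 to 27.0] in the control MO library. At 48 hpf 147 high and 34 zero pigment-high cells gave 97 members against 30.7%, 51 at the floor, against 10.4%, and a summed ratio of 17.6 [14.2 to 22.2]. Gut-high cells could be split only in the control MO library, where 123 and 24 cells gave 92 members against 30.4% of all genes, 49 at the floor, against 8.54%, and a summed ratio of 10.7 [8.61 to 13.4]. Thinned to 1500 UMIs a cell, gut-high cells gave 67 members, against 21.1%, and a median ratio of 3.08 in place of 19.5. With members at 0 set to the floor, the median was 2.63 and 2.35 in pigment-high cells at 72 hpf and in the control MO library and 1.96 in gut-high cells, in place of 10.97, 19.5 and 19.5. In all 7 groups of the other libraries the summed level was thus at least 8.72-fold higher in high cells.

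**Figure D3:**
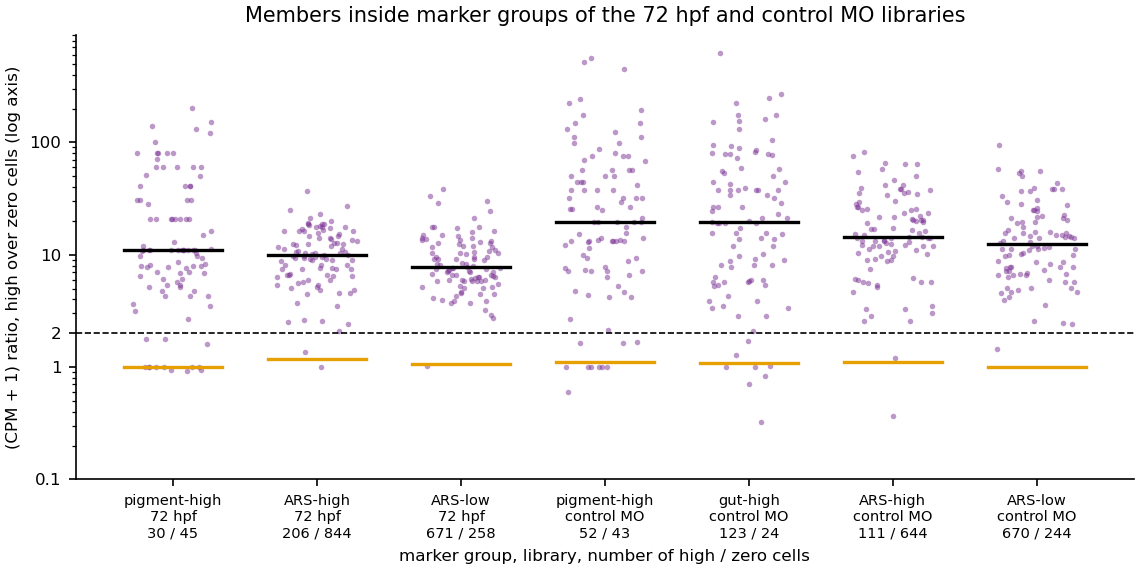
Ratio of each member (CPM plus 1 in high cells over CPM plus 1 in zero cells, log axis) inside 7 marker groups of the 72 hpf and control MO libraries, 1 point per member, with the median of the members in black, that of all 6589 genes in orange and a dashed line at 2. Medians of the members are 7.72 to 19.5, and those of the pigment-high and gut-high groups depend on the added CPM, being 1.96 to 2.63 with members at 0 set to the floor.

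Over these 7 groups, 74 members were at least 2-fold higher in every one, against 2.79% of all genes, 20 missed 1 group and 6 missed 2 or more. These counts depend on the added CPM, since many members had no UMI in zero cells of the pigment-high and gut-high groups. With such members set to the floor, gut-high cells alone gave 49 members, against 8.54% of all genes, so no more than 49 could pass in every group. LOC100888349 passed in 1 of 7 and LOC100891101 in 4 of 7. LOC100888349 had 0 UMIs in high and 3 in zero ARS-high cells of the control MO library and 1 and 1 in its pigment-high cells, too few to give it a direction there.

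The level of the module differed more between groups than between libraries. ARS-low cells had 12039 CPM at 48 hpf, 10705 CPM at 72 hpf, 10252 CPM in the control MO library and 10168 CPM in the gcm MO library, and ARS-high cells 3590, 3093, 2520 and 2070 CPM. Pigment-high cells had 11107 CPM [10881 to 11335] at 48 hpf, 7800 CPM [7502 to 8107] at 72 hpf and 6350 CPM [6108 to 6600] in the control MO library. High cells were 51.2% [45.3 to 57.1] of the 287 pigment-high cells at 48 hpf, 22.2% [15.5 to 30.2] of the 135 at 72 hpf and 32.3% [25.2 to 40.1] of the 161 in the control MO library, and 34.8%, 11.1% and 18.6% at 1500 UMIs a cell. The gcm MO library held 1 pigment-high cell. Skeletogenic-high cells were the lowest, with 1287, 760 and 1371 CPM in 21, 9 and 45 cells of the first 3 libraries, of which 1, 0 and 3 were high. Taking 3 counts as the limit that a count of 0 allows, the 0 of 9 cells at 72 hpf allow a share of up to 33.3%.

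The seeds serve different steps, which allows the members to be ordered by a contrast that the rule did not use. Cells with at least 2 UMIs of the 2 replication seeds, DNA polymerase alpha among them, and none of the 3 spindle seeds (NUSAP1, rac GTPase-activating protein 1 and centromere protein C) were compared with cells of the opposite kind. There were 51 replication-seed and 260 spindle-seed cells at 72 hpf, and 32 and 485 in the control MO library. The gcm MO library had 5 and 48, too few to count members in. At 72 hpf 31 members leaned at least 2-fold to replication seeds, against 6.66% of all genes, and 34 to spindle seeds, against 17.5%. Of the members, 16 leaned to replication seeds in the control MO library, against 11.5%, and 43 to spindle seeds, against 19.4%. At 48 hpf the counts were 16, against 7.06%, and 40, against 12.1%.

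Leaning in both were 13 members to replication seeds, against 1.47% of all genes, and 31 to spindle seeds, against 5.45%, while 56 did neither, 1 of them leaning to opposite sides. Members with no UMI in replication-seed cells numbered 4 at 72 hpf and 13 in the control MO library, and with these at the floor of 3 counts the spindle counts were 33 and 35, and 27 in both. Over the 100 members the lean in the 2 libraries had a Pearson r of 0.756 and a Spearman rho of 0.825, given as a description, since members share cells and depth. Of the 13, 10 also leaned at least 2-fold at 48 hpf, and of the 31, 30 did. Pigment-high cells were 5.88% of replication-seed and 8.46% of spindle-seed cells at 72 hpf and 18.8% and 1.86% in the control MO library, a difference whose part in the lean was not tested. With ARS-low cells alone 20 members leaned to replication seeds in both libraries, against 2.12% of all genes. With cells thinned to 1500 UMIs, 13 members leaned to replication seeds in both, against 2.53%, of which 8 were among the 13 above, and 26 to spindle seeds, against 14.5%, of which 19 were among the 31.

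**Figure D4:**
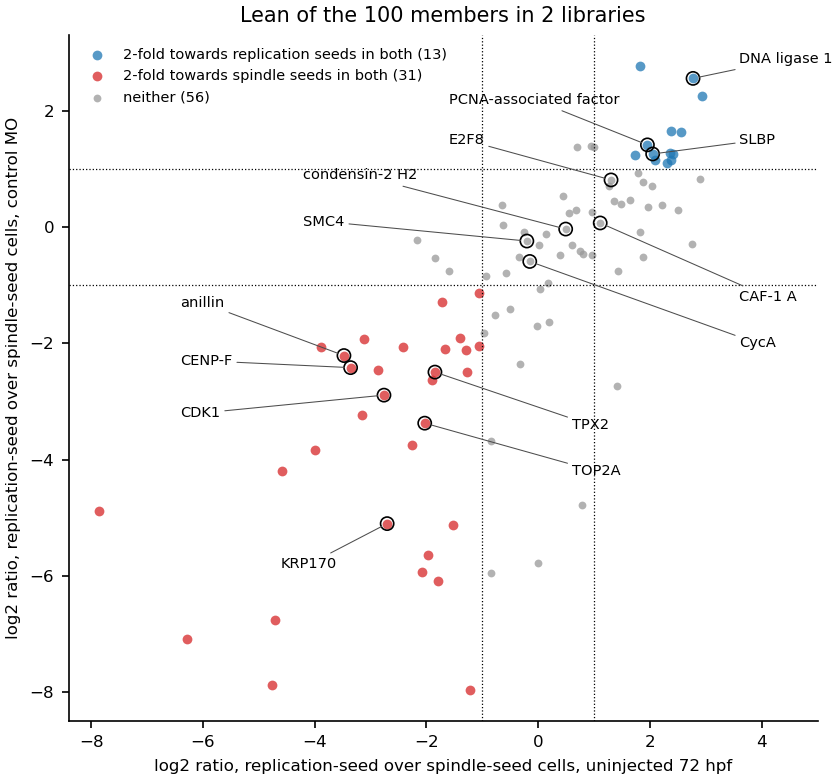
Lean of each member at 72 hpf (horizontal axis) and in the control MO library (vertical axis), as log2 of the level in replication-seed cells over that in spindle-seed cells, 1 point per member, with dotted lines at 2-fold and the named members ringed. Of the 100 points, 13 lie beyond 2-fold to the replication side on both axes and 31 to the spindle side.

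On the replication side the 6 strongest members were DNA ligase 1, LOC574665, LOC577033, LOC757166, LOC105436563 and LOC574732. DNA ligase 1 was at 1033 CPM in replication-seed and 150 CPM in spindle-seed cells at 72 hpf, which is 6.83-fold [5.53 to 8.55], and at 564 and 94.4 CPM in the control MO library, 5.92-fold [4.31 to 8.16]. LOC574665 was at 1821 and 239 CPM at 72 hpf, 7.59-fold [6.45 to 9.02], and 4.79-fold [3.66 to 6.26] in the control MO library. PCNA-associated factor leaned the same way by 3.88-fold [3.11 to 4.87] and 2.68-fold [2.00 to 3.54], and SLBP by 4.14-fold [2.47 to 7.17] and 2.40-fold [1.34 to 4.09]. Chromatin assembly factor 1 subunit A passed 2-fold at 72 hpf, with 2.16, and not in the control MO library, with 1.05 [0.814 to 1.34]. LOC105436563 has the identifier next to that of the seed DNA polymerase alpha in the files, so reads of the 2 gene models may be shared between them, which was not tested.

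On the spindle side the 6 strongest were LOC590676, LOC582892, LOC585265, LOC587774, LOC579091 and LOC579629, none with a name here. LOC582892 had 241 UMIs in spindle-seed cells at 72 hpf and 0 in replication-seed cells, which is at least 14.2-fold higher. It had 599 and 1 in the control MO library, a ratio of 29.7 [5.80 to 1284]. Centromere protein F leaned to the spindle seeds by 10.2-fold [6.66 to 17.0] at 72 hpf and 5.34-fold [3.38 to 9.06] in the control MO library. KRP170 did so by 6.51-fold [3.82 to 12.5] and 34.3-fold from 1 UMI in replication-seed cells [6.72 to 1485], anillin by 11.1-fold and 4.62-fold, and TPX2 by 3.6-fold [2.53 to 5.33] and 5.63-fold [3.30 to 10.7]. CDK1 leaned with them, by 6.77-fold [4.62 to 10.5] and 7.41-fold [5.10 to 11.3], and so did DNA topoisomerase 2-alpha, by 4.08-fold [2.71 to 6.54] and 10.4-fold [3.63 to 51.8].

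Between the sides lay cyclin A, SMC4 and condensin-2 subunit H2. Cyclin A was at 0.901 [0.634 to 1.25] and 0.665 [0.368 to 1.11] of replication over spindle, SMC4 at 0.869 [0.642 to 1.16] and 0.849 [0.576 to 1.21], and condensin-2 subunit H2 at 1.41 [0.95 to 2.04] and 0.980 [0.514 to 1.71]. All of these intervals held 1. The most abundant member, LOC577596, also lay between at 72 hpf, with 1180 CPM in replication-seed and 1042 CPM in spindle-seed cells, a ratio of 1.13 [0.974 to 1.31].

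The libraries differed in how many cells lay on each side. Replication-seed cells were 12.7% [9.96 to 15.9] of both kinds at 48 hpf, 16.4% [12.5 to 21.0] at 72 hpf, 6.19% [4.27 to 8.63] in the control MO library and 9.43% [3.13 to 20.7] in the gcm MO library. Of the replication and spindle seed UMIs in all high cells, replication seeds took 29.0%, 32.6%, 16.6% and 24.1%. The control MO library was the lowest by both measures, and the gcm MO library overlapped the others by the first.

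The levels of the members in high cells followed this order in part. In the comparison of control MO with uninjected 48 hpf embryos, the 31 members that leaned to replication seeds at 72 hpf had a median level ratio of 0.775, with 7 above 1, and the 34 spindle-leaning members 1.53, with 30 above 1, while the median over all genes was 0.981. In the gcm MO library over the control MO library the same 2 sets had medians of 1.24 (26 above 1) and 0.609 (3 above 1), beside 1.15 over all genes. The replication-leaning median was thus close to that of all genes, and only the spindle-leaning one lay apart from it. The share of all genes above 1 was not counted, so the counts above 1 have no background beside them. Both comparisons share the control MO library, so the second is not independent of the first. Set directly against uninjected 48 hpf embryos, the gcm MO library had medians of 0.891 and 1.01, both below the 1.16 over all genes. High cells were taken at the full depth of each library, and the part of unequal depth in these levels was not tested.

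**Figure D5:**
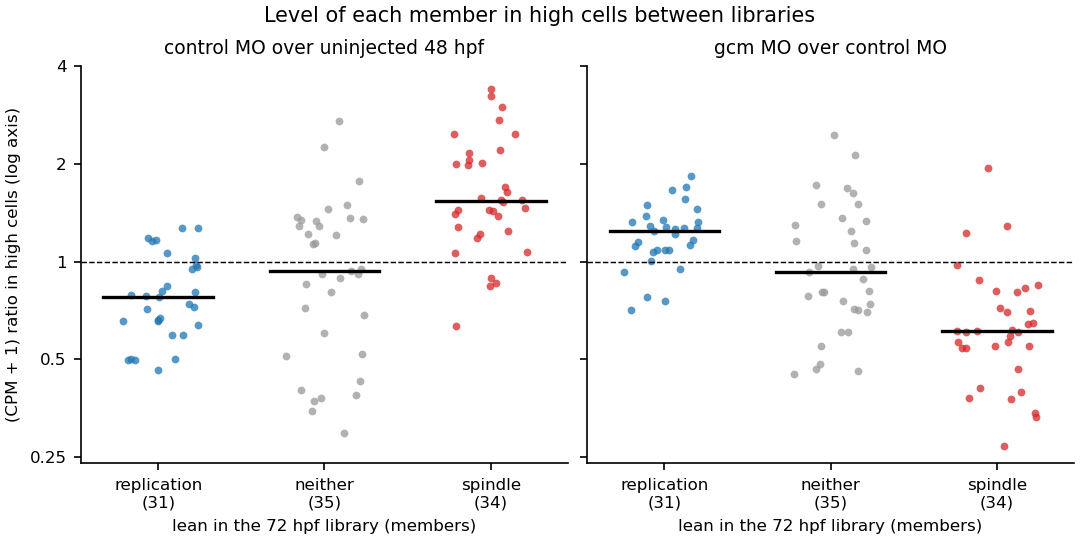
Level of each member in high cells as a ratio of CPM plus 1 between 2 libraries (log axis), grouped by its lean at 72 hpf, 1 point per member, with medians as black lines. Medians of replication-leaning and spindle-leaning members are 0.775 and 1.53 for control MO over uninjected 48 hpf, and 1.24 and 0.609 for gcm MO over control MO. Medians over all genes, not drawn, are 0.981 and 1.15.

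Between stages most members differed by less than 2-fold in high cells. Of the 100, 2 were at least 2-fold higher at 72 hpf than at 48 hpf, against 4.25% of all genes, and 7 at least 2-fold lower, against 11.4%, with a median ratio of 0.963 beside 0.888 over all genes. The 2 higher members were LOC105442406, from 24.5 to 112 CPM, 4.44-fold [3.8 to 5.56], and LOC100891101, from 45.8 to 118 CPM, 2.54-fold [2.21 to 3.00]. Among the lower were CDK1, from 1034 to 506 CPM, a ratio of 0.490 [0.465 to 0.514], LOC587735, from 34.9 to 7.65 CPM, 0.241 [0.144 to 0.322], LOC587774, 0.383 [0.233 to 0.529], LOC100888349, 0.123 [0.0232 to 0.176], and, outside the naming rule, LOC105440730, 0.157 [0.0652 to 0.220]. DNA ligase 1 and SMC4 were among members above 1, with 1.38 [1.30 to 1.46] and 1.46 [1.36 to 1.57], and centromere protein F below it, with 0.731 [0.692 to 0.770].

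Between the injected libraries, 2 members were at least 2-fold higher in high cells of the gcm MO library, against 9.62% of all genes, and 12 at least 2-fold lower, against 5.54%. LOC579629 went from 132 to 35.1 CPM, 0.271 [0.173 to 0.391], LOC582892 from 213 to 70.2 CPM, 0.333 [0.245 to 0.435], and LOC590676 from 90.3 to 35.1 CPM, 0.395 [0.252 to 0.577]. These 3 are among the strongest spindle-leaning members. In the same 2 libraries CDK1 was at 0.589 [0.544 to 0.636] and TPX2 at 0.615 [0.540 to 0.697], and DNA ligase 1 at 1.24 [1.07 to 1.44]. LOC100888349 was higher, from 48.9 to 105 CPM, 2.13-fold [1.63 to 2.83]. The other higher member was LOC591154, 2.46-fold, named outside the rule. High cells had a median of 5227 UMIs in the gcm MO library and 3282 in the control MO library. Of them, 19.9% and 7.72% gave members under 0.5% of their UMIs. The part of this difference in the levels was not tested.

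Over all kept cells the members summed to 7504 CPM [7459 to 7550] at 48 hpf, 6618 CPM [6571 to 6665] at 72 hpf, 6878 CPM [6824 to 6932] in the control MO library and 6600 CPM [6477 to 6724] in the gcm MO library. The 72 hpf level was 0.882 [0.874 to 0.890] of the 48 hpf level, and the gcm MO level 0.959 [0.940 to 0.979] of the control MO level. The latter difference was lost at equal depth, 1.01 [0.974 to 1.05] with cells thinned to 1500 UMIs, and was 1.22 over all deposited cells, so no direction is drawn from it.

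Several genes just outside the list are named after their values were seen. KIF15, a spindle kinesin, ranked 123 at 48 hpf, with ratios of 10.3, 10.5 and 21.5 in the first 3 libraries, and cyclin B (LOC576779), the partner of CDK1, ranked 135, with 9.95, 7.24, 18.1 and 18.9. Genes of other kinds ranked near them. hnf6, a transcription factor of the ciliary band, ranked 119 with 10.4, 4.63, 5.79 and 3.95, and inside ARS-low cells 4.90, 1.85 and 2.96. Endo16, a gut gene, ranked 181 with 8.36 at 48 hpf but 0.366 at 72 hpf, and inside ARS-low cells 0.941, 0.0459 and 1.52. The last values are shaped by the grouping, which moves cells rich in Endo16 to the gut-high group, so they cannot be set against those of the members. KIF15 kept 8.35, 5.52 and 25 inside ARS-low cells. Thus hnf6 had a ratio near the end of the list at 48 hpf but was under 2-fold inside ARS-low cells at 72 hpf. Of the 100 members, 98 were at least 2-fold higher inside ARS-low cells of both the 72 hpf and the control MO libraries, against 7.01% of all genes. LOC105440730 was not at 72 hpf, with 1.02, and LOC100888349 was not in the control MO library, with 1.43.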

How the data were processed

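The data were 4 single-cell libraries, deposited by the authors as matrices of UMI counts per gene and cell. The authors counted UMIs with Cell Ranger against the genome assembly Spur_4.2, and the submitters' processing notes also name Seurat. No normalization had been applied to the counts. Gene names come from symbols in the files and from the study's gene table, and RefSeq was used only to look up which identifiers it lists.

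Matrices were read with Python 3.11.15, numpy 2.4.6, scipy 1.17.1 and pandas 2.3.3, figures were drawn with matplotlib 3.10.9, and Scrublet was run through scanpy 1.11.5. The members, the gene lists and the comparisons were chosen with earlier results of these data known. Cells with 400 to 2500 genes and at least 1500 UMIs were kept. UMIs were summed over cells, and 1 CPM was added before the ratio of each gene, while summed ratios and those of marker lists used plain CPM. A ratio of at least 2 or at most 0.5 was called. Intervals are exact (Clopper-Pearson for shares, Poisson for levels, conditional binomial for plain CPM ratios) at 95% and cover counting error only. Where a set of cells held no UMI of a gene, the bound takes 3 counts in that set. A value given as at least so many fold leaves out the counting error of the other set, so it is not a full 95% limit. Thinning drew 1500 UMIs from each cell without replacement. Marker groups needed 20 high and 20 zero cells to be compared. The code was tested on simulated data. The module rule used 8 seeds, of which 1 is not reported here by name.

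Named were the 10 members with the highest ratio at 48 hpf, the first 10 and the last 10 by the median ratio over the other libraries, the 6 leaning most to replication and the 6 leaning most to spindle seeds among members with at least 20 UMIs in that contrast, and up to 4 members of each gene list. Alternatives changed the depth and seed thresholds, the gene limits, the size of the module, the seeds and the cells used. The planned keyword lists need gene descriptions, which were not used here, so lists were applied to the 24 tested genes with a name. Promoter motifs were not analysed here, and no sequence was used.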

Additional observations from a re-analysis of the deposited data

Results flagged for a closer look

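The report leaves out cells with over 2500 genes. In these the members summed to 8976 CPM [8828 to 9125] in 117 cells at 48 hpf and to 11438 CPM [11263 to 11615] in 108 cells at 72 hpf. In the control MO library they summed to 10560 CPM [9930 to 11219] in 10 cells, and in the gcm MO library to 14820 CPM [14464 to 15182] in 48 cells. All 4 values lie above the level of the members in the kept cells of the same library, and 91.5%, 92.6%, 100% and 95.8% of these cells had 4 or more seed UMIs. Their median depth was 10615, 10960.5, 10257 and 9257.5 UMIs, and the part of depth or of doublets in these values was not tested.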

How the results depend on the processing

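Of 118 alternatives to the values above, 83 left the value within its counting interval or its count within 1.5 times, 33 moved it and 2 put it on the other side of 1. The percent of members called began at 99 or 100 in whole libraries, so only a fall of over 1.5 times could count as a move. Many of the 83 are of this kind. Nearly all of the moves were of summed ratios and levels, so the tally does not show these to be stable. The percent of members called stayed between 94 and 100 at 72 hpf, against 10.5% to 72.6% of all genes. It stayed between 95 and 100 in the control MO library, against 10.6% to 66.5%, and between 94 and 100 in the gcm MO library, against 23.1% to 63.9%. Inside marker groups it was between 67 and 100 over 13 settings, against 9.71% to 30.5%. The whole-library settings include folds of 1.5 and 3 in place of 2, and a count of members with any higher mean log level over cells. With 10 CPM added, the median ratios became 4.73, 5.90 and 5.87. Summed ratios moved as follows. For 72 hpf (13.5), the control MO library (21.8) and the gcm MO library (35.4), thinning gave 11.1, 11.6 and 18.1, a threshold of 2 seed UMIs 10.7, 17.5 and 26.4, a minimum of 1000 UMIs a cell 10.6, 20.7 and 25.6, the first 200 genes 10.2, 13.1 and 25.9, and 7 seeds without SMC1A 12.8, 17.7 and 28.8. For 72 hpf and the control MO library, 6 seed UMIs gave 15.0 and 23.4, a minimum of 3000 UMIs 16.6 and 30.3, the first 50 members 14.3 and 26.0, and at least 200 UMIs a gene 10.8 and 18.9. Without an upper gene limit the 72 hpf value was 12.8, and with cells weighted equally it was 12.9, and 27.6 in the gcm MO library. The 72 over 48 hpf level (0.882) became 0.866 with thinning, 0.916 over all deposited cells, 0.866 at 1000 UMIs, 0.905 without pigment-high cells and 0.814 for the first 50 members. The gcm MO over control MO level (0.959) became 0.990 for the first 50 members and was 1.01 [0.974 to 1.05] with thinning and 1.22 over all deposited cells. Members leaning to replication seeds in both libraries (13) became 20 with ARS-low cells alone. The settings of 7 seeds, of equal weights and of ARS-low cells alone were chosen after seeing the data. The cause of these moves was not tested. Removing doublets could not be run for the uninjected libraries, where none were called, and promoter motifs were not run. No paired analysis was possible because each group has 1 library. The gcm MO library is limited most by its number of cells, with 354 kept cells, 78 zero cells and a median of 43.5 UMIs a member.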

Other observations

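The members were also present in cells left out for low depth. In cells with 400 to 2500 genes and under 1500 UMIs they summed to 9603, 7162, 4534 and 8267 CPM, and in cells with under 400 genes to 7488, 7237, 4496 and 7797 CPM, in the order of the libraries above. Few of these cells reached 4 seed UMIs, from 0% to 7.94%, at median depths of 535 to 1000 UMIs.

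The files list 4 pairs of neighbouring identifiers among the members and seeds. LOC105436615 stands next to DNA topoisomerase 2-alpha (LOC582001), LOC105438223 next to SMC4 (LOC592992), LOC591154 next to LOC105437539, and LOC105436563 next to the seed DNA polymerase alpha (LOC584095). Of the high cells at 48 hpf, 362 carried LOC105436615, 860 DNA topoisomerase 2-alpha and 305 both. In the control MO library these were 376, 447 and 231 of 959 high cells. In each pair 1 identifier is not listed by RefSeq. Whether the neighbours are parts of 1 gene was not tested.

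Of the named cell cycle genes outside the module, cyclin-dependent kinase inhibitor 3 (LOC580574), a phosphatase that acts on cyclin-dependent kinases, ranked 509 with ratios of 4.16, 5.67, 3.43 and 1.72 in the 4 libraries. Histone H2A.F/Z, a variant histone, ranked 708 with 3.40, 5.75, 3.19 and 4.77, from 20565 UMIs in high cells at 48 hpf. PCNA-interacting partner (LOC752321) ranked 3811 with 1.09, 0.925, 1.19 and 1.95, all under 2.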
